A study of Mus musculus with 4 samples.

Results

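Expression of 37 genes of glycolysis and of the response to low oxygen was examined in cultured mouse chondrocytes, the cells of articular cartilage. The genes were chosen by symbol and comprise 4 glucose and lactate transporters, 17 glycolytic enzymes, 3 regulators of glycolytic flux, 4 HIF subunits and prolyl hydroxylases and 9 other hypoxia-induced genes. All 37 were found among the 55450 genes of the deposited table, Gapdh under a symbol that it shares with its pseudogene Gapdh-ps15. With a minimum of 40 reads summed over the 4 libraries, 31 of the 37 were compared between libraries, and the other 6 are given by their reads alone.

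The chondrocytes came from the femoral heads of C57BL/6 mice (C57BL6/J in the label of the mimic library) at 3 weeks of age and were grown in DMEM with fetal bovine serum. The oxygen level of the cultures is not given in the sources used here. There was 1 library for each of 4 conditions. The wild type library carries that name in the sample labels, while the study's methods take as Control mice whose miR-23a/b clusters are flanked by loxP sites, so that its genotype is not certain. Cart-miR-23clus KO chondrocytes came from mice with Col2a1-cre and flox/flox alleles of the miR-23a/b clusters, in which a cartilage collagen promoter drives the deletion of both miRNA clusters (miR-23a, miR-27a and miR-24-2, and miR-23b, miR-27b and miR-24-1). Cells without a Col2a1 history in the culture would keep the clusters. The miR-26a KO chondrocytes lack miR-26a, and in the miR-26a KO + mimic library such cells were transfected with a double-stranded miR-26a mimic by Lipofectamine RNAiMax. A control transfection of the miR-26a KO library itself is not stated in its label. Since each condition is 1 library, differences have no replicate check, condition and library cannot be told apart, and no p-value is given.

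Glycolysis splits glucose into pyruvate, which can be reduced to lactate and exported without any use of oxygen. Cartilage has no blood vessels, and its chondrocytes are known to live in low oxygen and to rely largely on glycolysis. When oxygen falls, the prolyl hydroxylases of the Egln family no longer mark the alpha subunits Hif1a and Epas1 (HIF-2 alpha) for destruction, and these transcription factors then raise the transcription of most glycolytic genes and of genes such as Vegfa, Bnip3, Car9 and Adm. The miRNAs removed here act after transcription, through base pairing of their seed with the mRNA.

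Reads were taken from the 3′ ends of mRNAs (QuantSeq), and from 1328042 to 1498579 of them lay on genes in a library. At this depth a gene with 0 reads may hold up to 0.000226% of a library's reads. All intervals below are exact 95% intervals on the reads (Clopper-Pearson). They cover counting error only, because reads amplified by PCR without molecular identifiers are not independent molecules, and they compare libraries, not conditions. The 14 chondrocyte markers were all read, with a summed level of 15875 TPM in wild type, the highest. The sum was 11291 TPM with Cart-miR-23clus KO, beside 11518 and 11314 TPM in the libraries of miR-26a KO cells without and with the mimic. Comp and Prg4 of the same list were lowest in wild type, and Matn3, Col9a2 and Col9a3 were highest with Cart-miR-23clus KO. Osteoblast markers were abundant too, with a summed level of 34113 TPM in wild type, 12704 with Cart-miR-23clus KO, 25001 with miR-26a KO and 23749 with the mimic. The 12 macrophage markers summed to 1128 TPM in wild type, 1369 with Cart-miR-23clus KO, 406 with miR-26a KO and 759 with the mimic. The summed level of the 7 fibroblast markers, most of it from Dcn, was 1750 TPM with Cart-miR-23clus KO and 2499 to 2858 TPM elsewhere, while Pdgfra of the same list was highest with Cart-miR-23clus KO and Pi16 was at 0 in all libraries. The 8 endothelial markers summed to 15.6 to 31.9 TPM, nearly all of it from Egfl7 with 6 to 11 reads, and Cdh5, Tek and Tie1 were at 0 in all libraries. The 7 skeletal muscle markers summed to 4.42 to 11.3 TPM, with Ckm, Myh1 and Myh4 at 0 in all libraries, and all 6 erythroid markers were at 0. The part of these other cells in the results that follow was not tested, and in bulk RNA fewer cells of a type and less RNA per cell cannot be told apart.

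The 37 genes took between 0.517% and 0.579% of the reads on genes of a library. They held 8073 reads in wild type, which is 0.539% of its reads on genes (95% interval 0.527 to 0.551%). In Cart-miR-23clus KO the share was 0.517% (0.504 to 0.529%), in miR-26a KO 0.544% (0.532 to 0.557%) and in the mimic library 0.579% (0.567 to 0.592%). The mimic library's interval lay above the other three. On the scale of TPM, which divides the reads by gene length, the aldolase gene Aldoa had 843 to 1042 TPM, the lactate dehydrogenase gene Ldha 719 to 883 TPM, the pyruvate kinase gene Pkm 583 to 834 TPM and the hypoxia-induced mitochondrial gene Ndufa4l2 224 to 739 TPM. Aldoa was above Ldha in all libraries but wild type. Division by length does not suit reads that come from one end of an mRNA, and by reads alone Pkm, with 1346 to 2066 reads in a library, came before Aldoa, with 1330 to 1603, in all libraries but Cart-miR-23clus KO. The plot of reads by library shows that most genes lay close together in the 4 libraries.

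**Figure D1:**
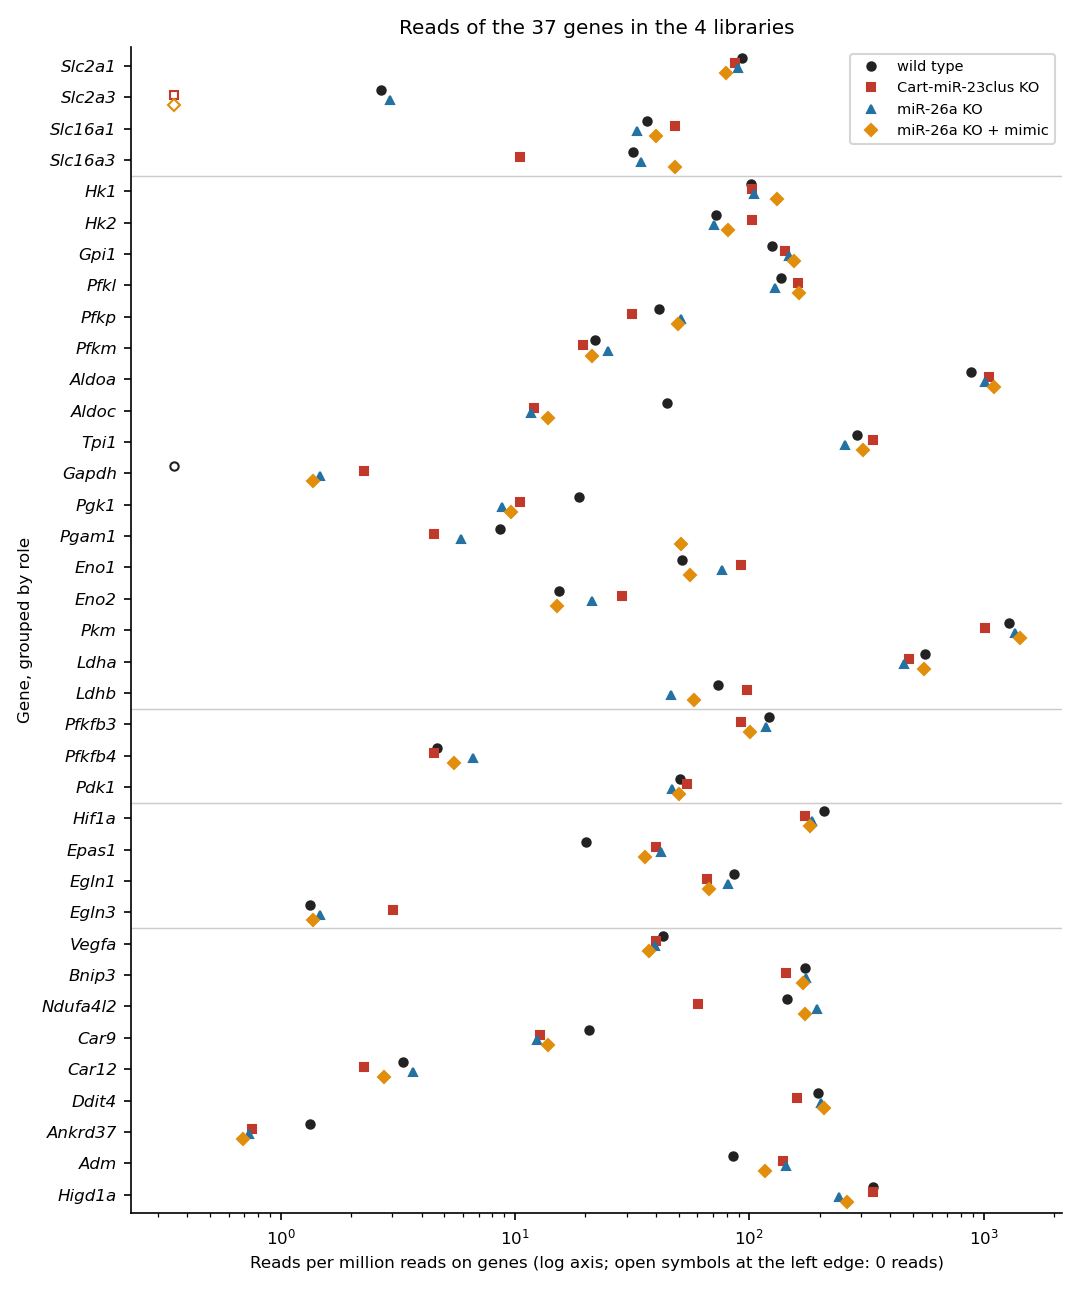
Reads of each of the 37 genes scaled to the reads on genes of the library (log axis) in the wild type (circles), Cart-miR-23clus KO (squares), miR-26a KO (triangles) and miR-26a KO + mimic (diamonds) libraries, 1 library each, with open symbols at the left edge for 0 reads. The symbols of most genes overlap, while wild type stands to the right for Aldoc (67 reads against 16, 16 and 20), Cart-miR-23clus KO to the left for Slc16a3 (14 reads against 48, 47 and 70) and Ndufa4l2, and the mimic library to the right for Pgam1 (74 reads against 13, 6 and 8).

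The comparison of Cart-miR-23clus KO with wild type asks how loss of the miR-23a/b clusters went along with the level of these genes. Of the 31 genes compared, 4 were at least 1.5-fold higher (Eno1, Eno2, Epas1 and Adm) and 6 at least 1.5-fold lower (Slc16a3, Aldoc, Pgk1, Pgam1, Ndufa4l2 and Car9). These are 12.9% and 19.4% of them, beside 12.4% higher and 12.9% lower among all 9540 genes compared. At 2-fold none was higher and 3 were lower (Slc16a3, Aldoc and Ndufa4l2), beside 4.64% and 4.33% of all genes. The median log2 ratio of the 31 was -0.14, that of all genes -0.02. The share of higher genes was thus at the level of all genes. Among the 6 lower genes only Ndufa4l2 has at least 200 reads summed over the libraries. With that minimum, 3 of 23 genes were past 1.5-fold in either direction. Of the 6 lower genes, Pgk1 and Pgam1 share over 40% of the 75-base windows of their transcript with other genes, as Gapdh and Eno1 do, and without these 4 genes 4 of 28 were past 1.5-fold lower and 3 past 2-fold. When Cart-miR-23clus KO was compared with the miR-26a KO library, 3 of 31 were past 1.5-fold lower, beside 1127 of all 9540 genes, and against the mimic library 4 of 31 were, beside 1165 of 9540.

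In miR-26a KO against wild type, 2 of the 31 were past 1.5-fold higher (Epas1 and Adm) and 4 lower (Aldoc, Pgk1, Ldhb and Car9), beside 11.5% and 9.94% of all genes. At 2-fold Epas1 was higher and Aldoc and Pgk1 were lower, beside 4.06% and 3.26% of all genes. The median log2 ratio was -0.05, against 0.03 over all genes. This comparison shares the wild type library with the first, so a gene that is high or low in that 1 library appears in both.

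The mimic library against miR-26a KO had 1 of the 31 past 1.5-fold, Pgam1, which was higher, and none lower, beside 7.04% higher and 6.96% lower among all genes. Pgam1 was also the gene past 2-fold, where 1.94% of all genes were higher and 1.51% lower. The median log2 ratio was 0.06 for the 31 genes and 0.00 for all. This comparison shares the miR-26a KO library with the second.

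**Figure D2:**
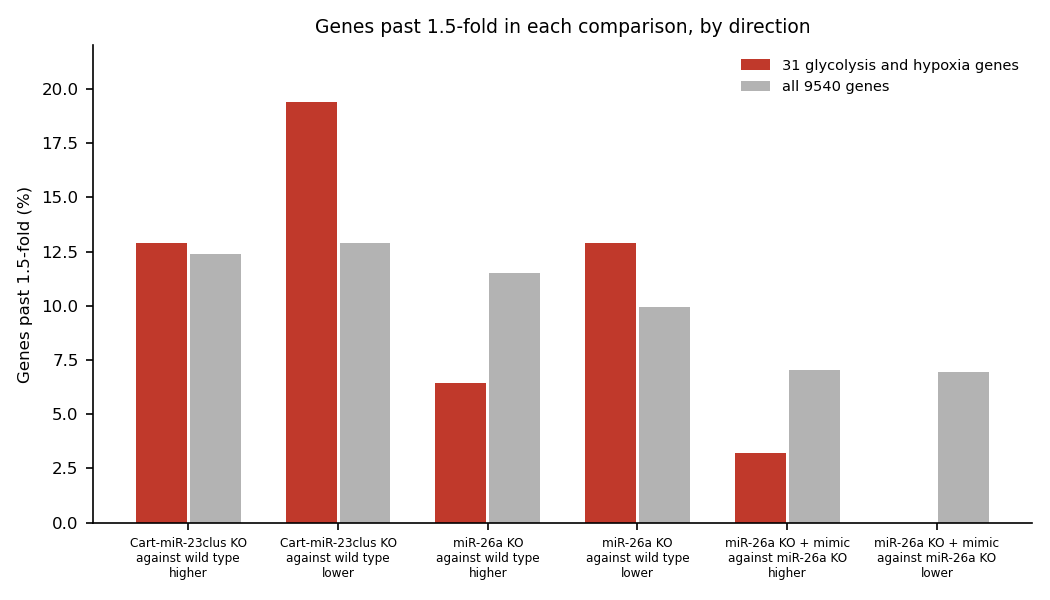
Percent of the 31 glycolysis and hypoxia genes (red) and of all 9540 genes compared (grey) that were at least 1.5-fold higher or lower in each of the 3 comparisons. The red bar is above the grey one by most for lower genes in Cart-miR-23clus KO (19.4% against 12.9%), a difference that rests on few genes (4 of 28 were lower without Gapdh, Pgk1, Pgam1 and Eno1), and both mimic bars are below the grey ones (1 gene higher, 0 lower).

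**Figure D3:**
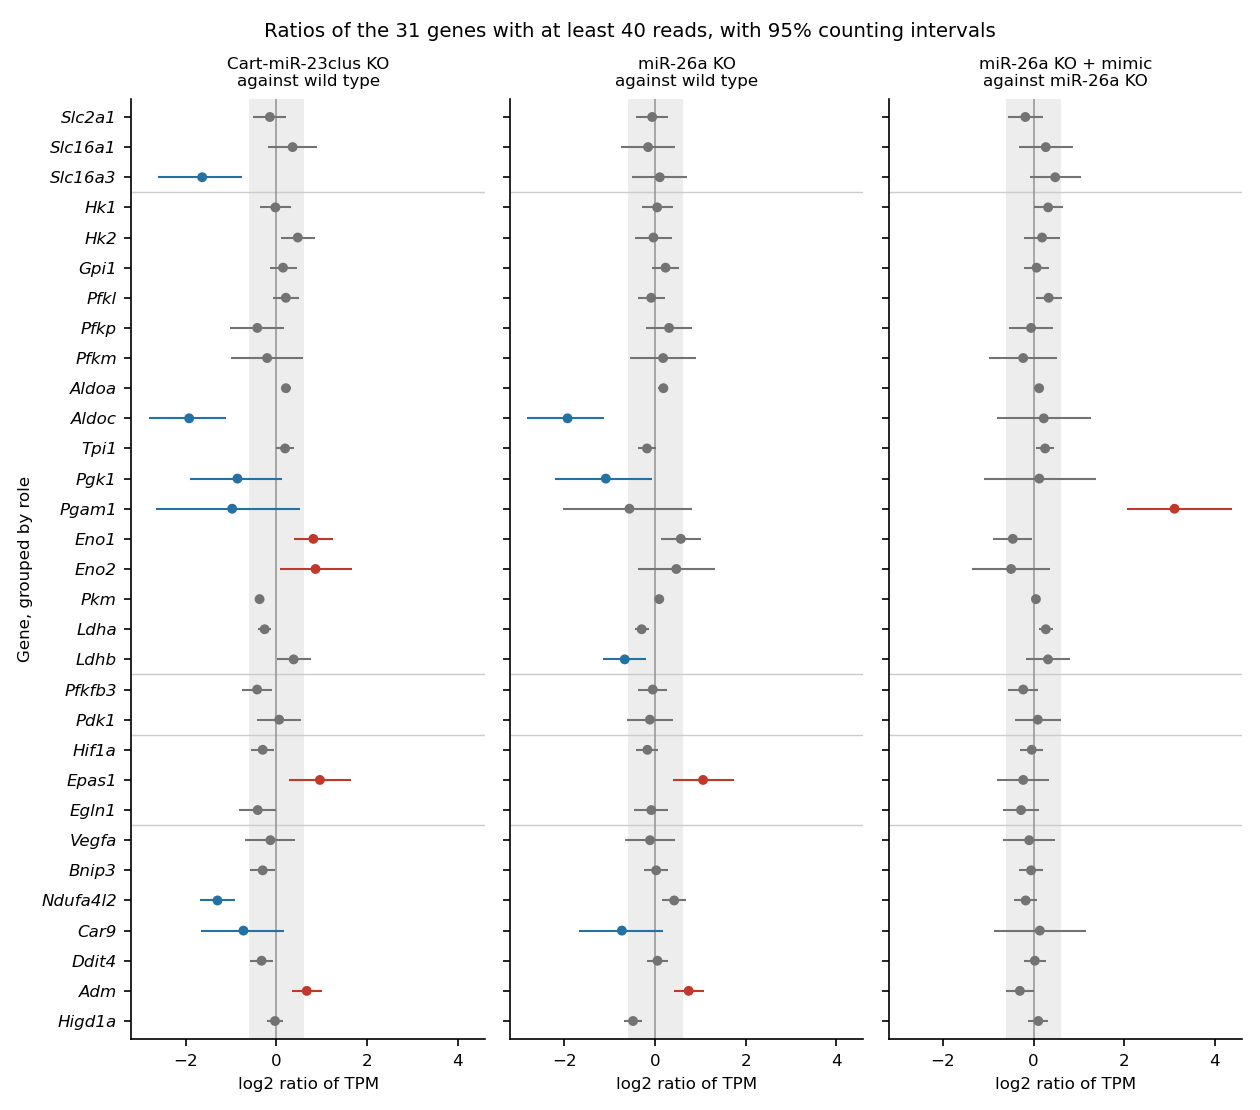
Log2 ratio of TPM of the 31 genes, grouped by role, in the 3 comparisons, with 95% counting intervals as lines. The grey band marks 1.5-fold, red points lie above it and blue points below it. Slc16a3 and Ndufa4l2 lie below the band only in the left panel, Aldoc, Pgk1, Car9, Epas1 and Adm are outside it in the left and middle panels, and Pgam1 alone is outside it in the right panel.

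Over the 3 comparisons, 11 genes were past 1.5-fold at least once and 20 of those compared stayed within it each time. The matching share of all genes past 1.5-fold at least once is not given. Whether 11 is more or fewer than usual therefore cannot be told. For Slc16a3 and Ndufa4l2 the Cart-miR-23clus KO library stood apart from the other three. For Aldoc, Epas1 and Adm it was the wild type library that stood apart, and for Pgam1 the mimic library. Wild type was also highest for Pgk1 and Car9, but the intervals of Car9 against wild type all included no difference, as did those of Pgk1 except in miR-26a KO. Eno1, Eno2 and Ldhb were spread over the libraries.

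Among the transporters, the main glucose carrier Slc2a1 (GLUT1) was level across the libraries. It had 140 reads in wild type, 115 with Cart-miR-23clus KO, 122 with miR-26a KO and 115 with the mimic, and its intervals included no difference in each comparison. Slc2a3 (GLUT3) was at or near the detection limit with 4, 0, 4 and 0 reads in the same order. The lactate carriers differed more. Slc16a3 (MCT4, chr11:120948480-120960868 on GRCm38), the hypoxia-induced exporter of lactate, had 48 reads in wild type, 14 with Cart-miR-23clus KO, 47 with miR-26a KO and 70 with the mimic. Its level in Cart-miR-23clus KO, 6.49 TPM, was 3.11-fold lower than in wild type (95% interval 1.69 to 6.12). It was 3.35-fold lower than in miR-26a KO (1.81 to 6.59) and 4.66-fold lower than in the mimic library (2.60 to 8.96), so that the difference did not rest on the choice of the library compared with. Slc16a1 (MCT1), the carrier that moves lactate in either direction, had 55, 64, 45 and 58 reads. Its ratio between Cart-miR-23clus KO and wild type was 1.28 (0.880 to 1.87). Slc16a3 therefore held 46.6% of the reads of the pair in wild type (36.7 to 56.7%) and 17.9% in Cart-miR-23clus KO (10.2 to 28.3%), beside 51.1% and 54.7% in the miR-26a libraries.

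The promoters of 3 genes that were lower than in wild type are shown because the hypoxia-inducible factors bind the letters ACGTG or GCGTG. Each sequence runs from 250 bases before to 50 bases after the annotated transcription start (RefSeq on GRCm38.p6), with the letters ACGTG in capitals as read on either strand, so that CACGT marks the reverse strand. Slc16a3 is given on the plus strand at chr11:120948817-120949116, Car9 on the plus strand at chr4:43506776-43507075, and Aldoc on the plus strand at chr11:78322823-78323122, the first of its 2 windows.
Slc16a3: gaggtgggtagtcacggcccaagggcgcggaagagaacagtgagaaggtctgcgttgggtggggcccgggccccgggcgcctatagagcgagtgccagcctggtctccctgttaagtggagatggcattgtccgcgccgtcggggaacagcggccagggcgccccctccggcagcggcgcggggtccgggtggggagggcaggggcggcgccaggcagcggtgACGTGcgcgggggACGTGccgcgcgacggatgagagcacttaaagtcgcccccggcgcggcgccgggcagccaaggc
Car9: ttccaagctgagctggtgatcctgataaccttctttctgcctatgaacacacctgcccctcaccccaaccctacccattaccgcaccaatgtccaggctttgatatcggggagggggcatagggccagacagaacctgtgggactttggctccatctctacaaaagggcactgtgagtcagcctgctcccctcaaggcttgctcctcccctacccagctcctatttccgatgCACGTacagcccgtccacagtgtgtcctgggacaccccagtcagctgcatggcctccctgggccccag
Aldoc: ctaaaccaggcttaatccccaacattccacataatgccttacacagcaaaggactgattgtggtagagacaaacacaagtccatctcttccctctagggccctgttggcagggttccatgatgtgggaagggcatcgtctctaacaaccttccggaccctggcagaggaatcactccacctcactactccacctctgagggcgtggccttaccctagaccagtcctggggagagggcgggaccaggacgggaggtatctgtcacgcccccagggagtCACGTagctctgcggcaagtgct
In Slc16a3 the letters begin at positions -27 and -14 from the start of transcription, in Car9 at -18 and in Aldoc at 28. Among the 34 of the 37 genes with a promoter in the table, 23 (67.6%) held ACGTG in at least 1 of their windows, beside 30.6% of 7381 genes compared that have a promoter and 19.6% of all 32851 windows. GCGTG was in 22 of the 34 (64.7%), beside 58.9% of the genes compared. The palindrome CACGTG counts on both strands, and many of the 37 genes were listed because they are known to be induced through such sites, so these shares only describe the list. Among the genes past 1.5-fold in Cart-miR-23clus KO against wild type, the 5 lower ones with a promoter in the table (Slc16a3, Aldoc, Pgk1, Pgam1 and Car9) all held ACGTG, and the 3 higher ones with a promoter (Eno1, Eno2 and Adm) did not. The intervals of Pgk1, Pgam1 and Car9 included no difference, and Hk2 and Aldoa, whose intervals lay above it in the same comparison, held ACGTG too. Eno1 and Adm held GCGTG, as did Aldoc and Pgam1. Ldhb, lower in miR-26a KO, held GCGTG and not ACGTG. A match in these letters is not a shown binding site.

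The early enzymes of glycolysis varied little. Hexokinase, which traps glucose in the cell as its phosphate, is encoded here by Hk1, with 152 reads in wild type, 136 with Cart-miR-23clus KO, 143 with miR-26a KO and 191 with the mimic, and by the more inducible Hk2, with 108, 136, 96 and 117. Hk2 was 1.39-fold higher in Cart-miR-23clus KO relative to wild type (95% interval 1.07 to 1.80) and 1.42-fold higher than in miR-26a KO (1.09 to 1.86), both within 1.5-fold. Hk1 and Hk2 had 136 reads each in that library, beside a share of 41.5% for Hk2 in wild type (35.5 to 47.8%). The isomerase gene Gpi1 had 188, 189, 201 and 225 reads and remained within 1.5-fold in all 3 comparisons. Phosphofructokinase, the committed step, was read mostly from the liver-type gene Pfkl, with 205, 215, 176 and 237 reads, followed by Pfkp with 62, 42, 70 and 72 and the muscle-type gene Pfkm with 33, 26, 34 and 31. Per length the order was different, since on the TPM scale Pfkm was the highest of the 3 in every library, with 62.6 to 81.6 TPM, ahead of Pfkl with 49.6 to 62.4. None of the 3 was past 1.5-fold in the 3 main comparisons. Pfkp was lowest in Cart-miR-23clus KO, 1.66-fold below miR-26a KO (95% interval 1.12 to 2.50) and 1.60-fold below the mimic library (1.08 to 2.40), while its interval against wild type included no difference.

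Aldolase cleaves the sugar, and its genes Aldoa and Aldoc differed in their pattern. Aldoa, the form of most tissues, had 1330 reads in wild type, 1396 with Cart-miR-23clus KO, 1377 with miR-26a KO and 1603 with the mimic. Its ratios were between 1.09 and 1.16 in the 3 comparisons. Aldoc (chr11:78322968-78327781), the form best known from brain, had 67 reads in wild type and 16, 16 and 20 in the other libraries. Wild type alone was high. Its level was 3.80-fold lower in Cart-miR-23clus KO (95% interval 2.18 to 7.03) and 3.81-fold lower in miR-26a KO (2.19 to 7.05), and the mimic library was also 3.26-fold below wild type (1.96 to 5.68). Between the mimic and miR-26a KO libraries the ratio was 1.17 (0.575 to 2.41). Aldoc was 4.80% of the aldolase reads in wild type and 1.13%, 1.15% and 1.23% in the others.

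Some glycolytic enzyme genes with near-identical copies elsewhere in the genome had few reads. Gapdh, the dehydrogenase of the middle of the pathway and a common reference gene, was listed at 0, 3, 2 and 2 reads. Of the 75-base windows in the last 500 bases of its transcript, 84.0% were also found in the transcript of another gene, and 76 other genes matched it at 95% identity or more. Eno1 shared 62.0% of these windows, with 3 copies. Over the whole transcript Pgk1 shared 67.5% (4 copies) and Pgam1 40.6% (1 copy), whereas both shared under 2% in the last 500 bases. Aldoa, Hk1 and Pfkl shared none. The aligner and its treatment of reads with several matches are not given in the sources used here, from 13.0% to 15.4% of the reads aligned more than once in the libraries with counts, and the part of such reads in the low values was not tested. The values of Gapdh and Eno1 are therefore uncertain. For Pgk1 and Pgam1 the sharing lies almost wholly outside the last 500 bases, so whether it affects their 3′ reads is not known. Ldhb shared 17.1% of the windows in its last 500 bases with 1 copy, so that part of its reads may be affected too.

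**Figure D4:**
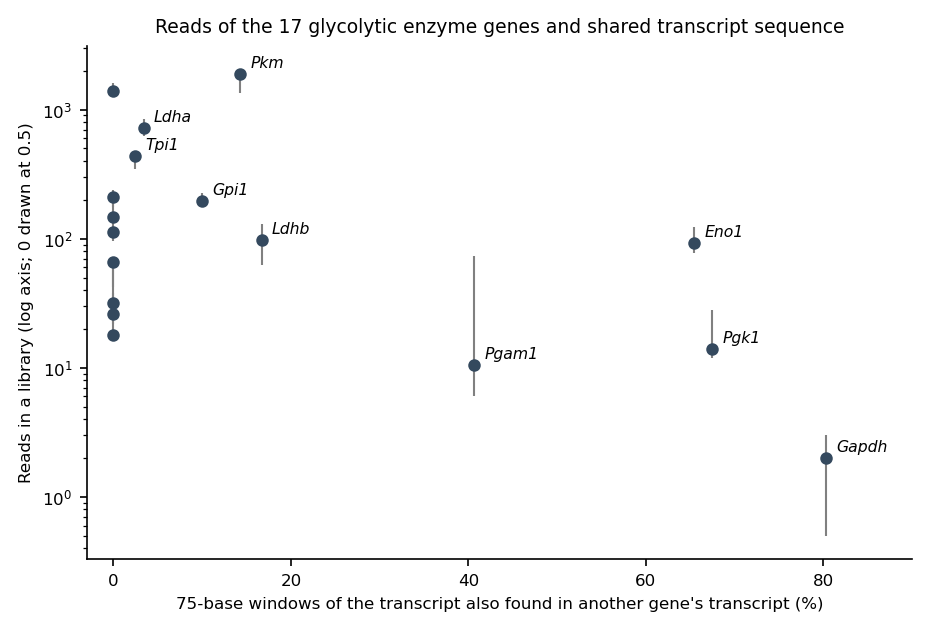
Reads of the 17 glycolytic enzyme genes in a library (log axis, points at the median of the 4 libraries, lines from the lowest to the highest, with 0 drawn at 0.5) against the percent of the transcript's 75-base windows that also occur in the transcript of another gene. Gapdh, with 80.3% shared, had 0 to 3 reads, while Pkm, with 14.3% shared, had 1346 to 2066.

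Tpi1, which interconverts the products of aldolase, had 432, 448, 348 and 444 reads and was within 1.5-fold throughout. The phosphoglycerate kinase gene Pgk1 (chrX:106187100-106203699) had 28 reads in wild type and 14, 12 and 14 in the others. It was 1.82-fold lower in Cart-miR-23clus KO (95% interval 0.925 to 3.73) and 2.12-fold lower in miR-26a KO (1.05 to 4.59). The first of these intervals includes no difference.

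The phosphoglycerate mutase gene Pgam1 (chr19:41911923-41918660) had 13 reads in wild type, 6 with Cart-miR-23clus KO, 8 with miR-26a KO and 74 with the mimic. The mimic library alone was high. Pgam1 was 8.64-fold higher there than in miR-26a KO (95% interval 4.17 to 20.8), the second highest ratio of all 9540 genes, and 5.84-fold higher than in wild type (3.22 to 11.5). Its copy Pgam1-ps2 had 0 reads in all 4 libraries. The read number of the mimic library was recovered from its TPM. The lower value in Cart-miR-23clus KO relative to wild type, 1.97-fold (0.698 to 6.31), was within counting error.

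Enolase forms phosphoenolpyruvate, and its genes differed in their pattern. Eno1 (chr4:150236721-150248879), the form of most tissues, had 77 reads in wild type, 123 with Cart-miR-23clus KO, 104 with miR-26a KO and 81 with the mimic. It was 1.76-fold higher in Cart-miR-23clus KO relative to wild type (95% interval 1.31 to 2.37) and 1.48-fold higher in miR-26a KO (1.09 to 2.02), and the mimic library was 1.37-fold below miR-26a KO (1.02 to 1.86). Eno2 (chr6:124760053-124769673), the neuronal form, had 23, 38, 29 and 22 reads, 1.82-fold higher in Cart-miR-23clus KO relative to wild type (1.06 to 3.20). Eno3, the muscle form and not among the 37, went the other way with 46 reads in wild type and 2, 7 and 7 in the others, while the muscle markers summed to 6 reads in wild type and 16, 7 and 5 in the others, mostly from Acta1 and Tnnt3. It was 31.5% of the enolase reads in wild type (24.1 to 39.7%) and 1.23% in Cart-miR-23clus KO (0.149 to 4.36%).

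**Figure D5:**
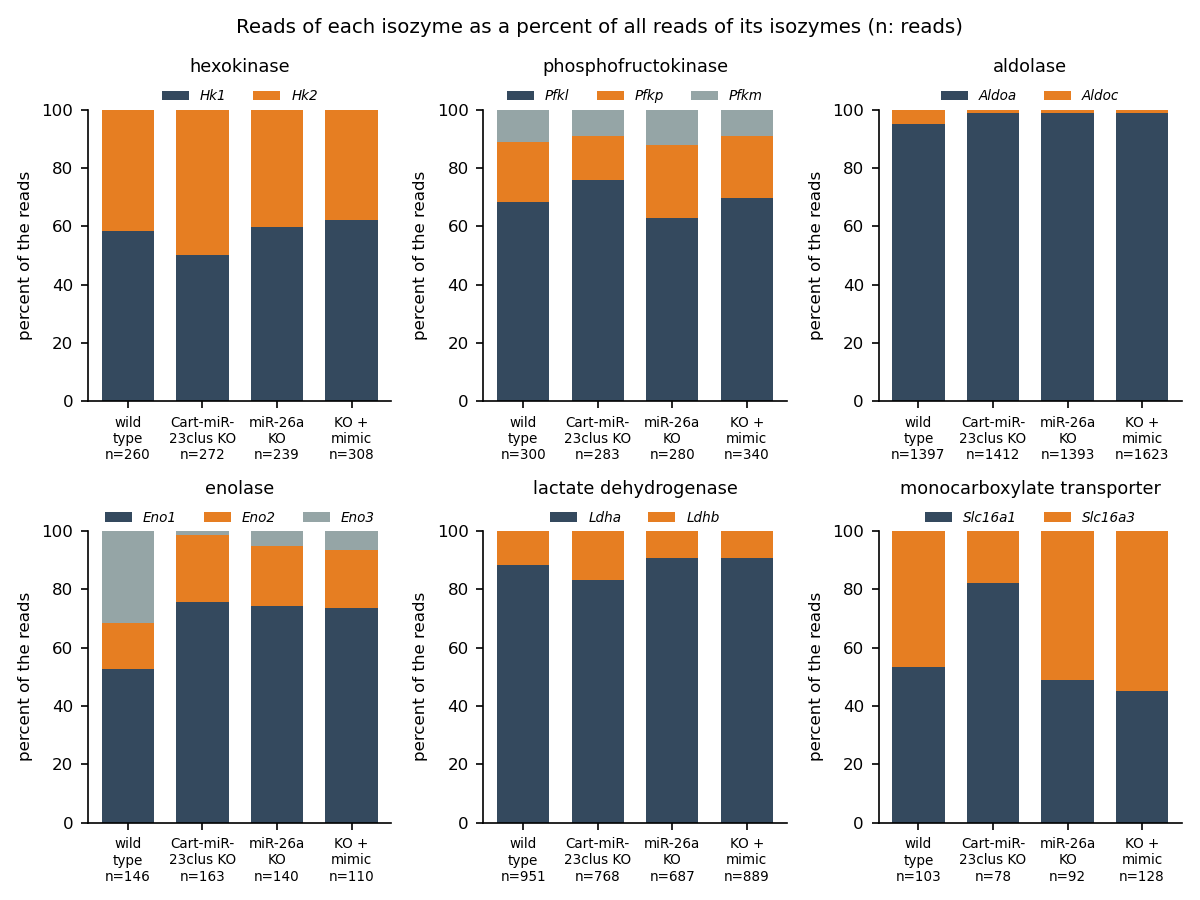
Reads of each gene as a percent of all reads of its isozymes in the 4 libraries, with the number of reads (n) under each bar. Eno3 is 31.5% of the enolase reads in wild type and at most 6.36% in the others, Slc16a3 is 17.9% of its pair in Cart-miR-23clus KO and 46.6 to 54.7% elsewhere, and Aldoa is over 95% of aldolase in each library.

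The last steps form pyruvate and lactate. Pkm, which makes pyruvate and ATP, had 1918 reads in wild type, 1346 with Cart-miR-23clus KO, 1863 with miR-26a KO and 2066 with the mimic. Cart-miR-23clus KO was the lowest, 1.29-fold below wild type (95% interval 1.21 to 1.39), 1.38-fold below miR-26a KO (1.29 to 1.48) and 1.43-fold below the mimic library (1.34 to 1.53). The difference was small, but it was larger than the counting error. Ldha, which reduces pyruvate to lactate, had 841, 638, 624 and 805 reads. It was 1.20-fold lower in Cart-miR-23clus KO (1.08 to 1.33) and 1.23-fold lower in miR-26a KO (1.11 to 1.36) than in wild type, and 1.21-fold higher in the mimic library than in miR-26a KO (1.08 to 1.34). Ldhb (chr6:142490249-142507957), the form that favours the reverse reaction, had 110 reads in wild type, 130 with Cart-miR-23clus KO, 63 with miR-26a KO and 84 with the mimic. In miR-26a KO it was 1.59-fold below wild type (1.16 to 2.20) and 2.07-fold below Cart-miR-23clus KO (1.52 to 2.84). Ldhb held 16.9% of the lactate dehydrogenase reads in Cart-miR-23clus KO (14.3 to 19.8%), beside 11.6% in wild type (9.60 to 13.8%), 9.17% with miR-26a KO and 9.45% with the mimic.

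The regulators of flux were within 1.5-fold in all comparisons. Pfkfb3, which makes the activator of phosphofructokinase, had 182 reads in wild type, 123 with Cart-miR-23clus KO, 160 with miR-26a KO and 146 with the mimic, 1.34-fold lower in Cart-miR-23clus KO relative to wild type (95% interval 1.06 to 1.70). Its relative Pfkfb4 was near the detection limit with 7, 6, 9 and 8 reads. Pdk1, the kinase that inhibits pyruvate dehydrogenase, had 76, 72, 64 and 73 reads and ratios between 0.925 and 1.07 in the 3 main comparisons.

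In Cart-miR-23clus KO the alpha subunits of HIF differed from wild type in opposite directions. Hif1a had 311 reads in wild type, 229 with Cart-miR-23clus KO, 252 with miR-26a KO and 262 with the mimic, 1.23-fold lower in Cart-miR-23clus KO (95% interval 1.04 to 1.47). Epas1 (chr17:86753700-86833410) had 30 reads in wild type and 53, 57 and 52 in the others. Wild type alone was low. Epas1 was 1.95-fold higher in Cart-miR-23clus KO (1.22 to 3.15) and 2.09-fold higher in miR-26a KO (1.32 to 3.36), and the mimic library differed from miR-26a KO by less than the counting error, with a ratio of 0.852 (0.574 to 1.26). On the TPM scale Hif1a was higher than Epas1 in every library, with Epas1 at 7.12% of their sum in wild type and 13.6 to 15.5% elsewhere. The oxygen sensor Egln1 (PHD2) had 129, 88, 111 and 98 reads, 1.33-fold lower in Cart-miR-23clus KO relative to wild type (1.01 to 1.77). Egln3 (PHD3), a sensor that is itself induced by HIF, had 2, 4, 2 and 2 reads, too few to compare.

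Of the other hypoxia-induced genes, Ndufa4l2 (chr10:127514967-127517154), which lowers the oxygen use of mitochondria, differed most between Cart-miR-23clus KO and the other libraries. It had 217 reads in wild type, 80 with Cart-miR-23clus KO, 265 with miR-26a KO and 251 with the mimic. The Cart-miR-23clus KO library was 2.46-fold below wild type (95% interval 1.90 to 3.23), 3.30-fold below miR-26a KO (2.56 to 4.30) and 2.92-fold below the mimic library (2.27 to 3.81). The gene Shmt2 overlaps its 3′ end on the opposite strand and had 172, 154, 175 and 201 reads, a log2 ratio of -0.02 in Cart-miR-23clus KO against wild type. Whether the counting used the strand is not given in the sources used here. Of the 9 osteoblast markers compared, 8 were past 2-fold lower in the same library, beside 4.33% of all genes, while Spp1, with 1140 reads in wild type and 2160 with Cart-miR-23clus KO, was past 2-fold higher, and their part in the value of Ndufa4l2 was not tested.

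Adrenomedullin, encoded by Adm (chr7:110627661-110629820), is a secreted peptide that relaxes vessels. It had 128 reads in wild type, 185 with Cart-miR-23clus KO, 195 with miR-26a KO and 169 with the mimic, with wild type lowest. It was 1.59-fold higher in Cart-miR-23clus KO (95% interval 1.26 to 2.01) and 1.67-fold higher in miR-26a KO (1.33 to 2.11). The mimic library was 1.24-fold below miR-26a KO, at the edge of the counting error (1.00 to 1.53). Car9 (chr4:43506966-43513729), the carbonic anhydrase of the cell surface, had 31 reads in wild type and 17, 17 and 20 in the others. Its ratio to wild type was 0.604 in Cart-miR-23clus KO (0.314 to 1.13) and 0.602 in miR-26a KO (0.313 to 1.12), past 1.5-fold in both, but each interval included 1. Its relative Car12 had 5, 3, 5 and 4 reads.

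The classical hypoxia genes Vegfa, Bnip3 and Ddit4 were within 1.5-fold in every comparison. Vegfa, the vessel growth factor, had 64, 53, 54 and 54 reads, and its ratio in Cart-miR-23clus KO was 0.912 (95% interval 0.621 to 1.33). Bnip3, which acts in the removal of mitochondria, had 258, 190, 239 and 246 reads, 1.23-fold lower in Cart-miR-23clus KO relative to wild type (1.02 to 1.50). Ddit4 (REDD1), an inhibitor of mTORC1, had 293, 212, 277 and 302 reads, 1.25-fold lower in Cart-miR-23clus KO (1.05 to 1.51). Cart-miR-23clus KO was the lowest library for both. Higd1a, a small mitochondrial protein, was lower in both miR-26a libraries, with 504 reads in wild type, 448 with Cart-miR-23clus KO, 328 with miR-26a KO and 377 with the mimic, and was 1.40-fold below wild type in miR-26a KO (1.22 to 1.61). Ankrd37 had 2, 1, 1 and 1 reads.

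The intervals give a second count for abundant genes, where a small difference exceeds the counting error. In Cart-miR-23clus KO against wild type, the interval lay above no difference for 7 of the 31 genes and below it for 10, beside 11.7% and 12.2% of all genes. In miR-26a KO these were 6 and 5 genes, beside 11.1% and 8.42%, and for the mimic 5 and 1, beside 4.96% and 5.06%. The 7 higher genes in Cart-miR-23clus KO were Hk2, Aldoa, Eno1, Eno2, Ldhb, Epas1 and Adm, and the 10 lower ones were Slc16a3, Aldoc, Pkm, Ldha, Pfkfb3, Hif1a, Egln1, Bnip3, Ndufa4l2 and Ddit4. The 31 genes had a median of 457 reads summed over the libraries, beside 184 for all genes compared. Their intervals are narrower, so this count cannot be read directly against all genes. The count past 1.5-fold depends on the reads too, because genes with few reads pass it more easily by counting error.

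Matches to the seeds of the deleted miRNAs were sought in the annotated 3′ UTRs, since a gene held down by a miRNA can be higher without it. The mature sequences from RefSeq, except that of miR-23b-3p, are shown with the seed, bases 2 to 8, in capitals. The sense strand of the transfected mimic is the same as miR-26a-5p.
miR-26a-5p: uUCAAGUAauccaggauaggcu
miR-23a-3p: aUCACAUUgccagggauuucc
miR-27a-3p: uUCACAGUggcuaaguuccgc
miR-27b-3p: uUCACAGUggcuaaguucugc
miR-24-3p: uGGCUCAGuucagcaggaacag
The match to the miR-26a seed, TACTTGA, was in the 3′ UTR of 2 of the 31 genes, Pfkfb3 and Adm (6.45%), beside 12.4% of the 9094 genes compared with such a UTR. The match to miR-23 (AATGTGA) was in Ldhb, Pfkfb3, Pdk1 and Epas1 (12.9%, beside 17.5%), that to miR-27 (ACTGTGA) in Egln1, Car9 and Ddit4 (9.68%, beside 18.1%), and that to miR-24 (CTGAGCC) in Slc16a1, Slc16a3, Pfkl, Tpi1, Eno2, Pkm and Adm (22.6%, beside 19.7%). The sites that match miR-26a or miR-23 in genes past 1.5-fold in any of the 3 comparisons are shown with the match in capitals, on GRCm38 and on the strand of the gene. They lie at chr7:110629426-110629432 (plus) in Adm, at chr17:86831934-86831940 (plus) in Epas1 and at chr6:142490396-142490402 (minus) in Ldhb.
Adm, miR-26a: gcataagcctcattacTACTTGAactttc
Epas1, miR-23: tatggggcaaaaaagcAATGTGAagaatc
Ldhb, miR-23: tagaacacaaacctccAATGTGAccatga
Adm was 1.67-fold higher in miR-26a KO and 1.59-fold higher in Cart-miR-23clus KO, each relative to wild type. Between the mimic and miR-26a KO libraries its ratio was 0.810, with an interval that reached no difference (0.655 to 1.00). The UTR of Adm holds a miR-24 match as well, and the part of either match was not tested. Pfkfb3, with 2 miR-26a matches, differed by less than the counting error in miR-26a KO, with a ratio of 0.966 to wild type (95% interval 0.776 to 1.20), and in the mimic library, with a ratio of 0.853 to miR-26a KO (0.677 to 1.07). Epas1 was higher in Cart-miR-23clus KO relative to wild type, and Ldhb had a ratio of 1.30 there (1.00 to 1.69) and was past 1.5-fold from wild type in miR-26a KO alone, while Pfkfb3, which has a miR-23 match too, was lower. The 4 genes with a miR-23 match had log2 ratios between -0.43 and 0.96 there, within the range of -1.93 to 0.86 of the 27 without one except for Epas1. The 3 with a miR-27 match had log2 ratios from -0.73 to -0.33, with a median of -0.41 beside -0.08 for the 28 without one. The 7 with a miR-24 match ran from -1.64 for Slc16a3 to 0.86 for Eno2, with a median of 0.21 beside -0.23 for the 24 without. A match of 7 bases is a description and not a shown target site.

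Genes beyond the 37 were taken from lists of the same pathways. Of 30 further hypoxia-induced genes compared, 5 were past 1.5-fold higher and 5 lower in Cart-miR-23clus KO against wild type, 6 higher and 1 lower in miR-26a KO, and 1 higher and 2 lower with the mimic, beside the shares of all genes given above. The collagen crosslinking enzyme Lox had 1211 reads in wild type, 4416 with Cart-miR-23clus KO, 4198 with miR-26a KO and 3620 with the mimic, 4.01-fold higher in the first comparison (95% interval 3.77 to 4.28). The haem oxygenase gene Hmox1 had 87, 229, 182 and 168 reads and was 2.90-fold higher (2.26 to 3.75). The lysyl oxidase relative Loxl2, with 420, 213, 320 and 319 reads, was 1.79-fold lower (1.52 to 2.12). Of 13 further components of the HIF pathway, 3 were higher and none lower in Cart-miR-23clus KO, beside 12.4% and 12.9% of all genes, among them the HIF beta subunit Arnt2 with 13, 31, 33 and 25 reads and the coactivator Ep300 with 26, 52, 38 and 34.

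Pathways that branch from glycolysis were compared in the same way. Of 9 genes of the pentose phosphate pathway, 2 were past 1.5-fold higher and 1 lower in Cart-miR-23clus KO, beside 12.4% and 12.9% of all genes. The entry enzyme G6pdx had 57 reads in wild type, 116 with Cart-miR-23clus KO, 58 with miR-26a KO and 55 with the mimic, 2.24-fold higher in Cart-miR-23clus KO relative to wild type (95% interval 1.62 to 3.13), and Cart-miR-23clus KO alone was high. Of 10 genes of pyruvate dehydrogenase and its regulators 1 was past 1.5-fold higher there, Pdk2, with 19, 27, 33 and 25 reads, beside 12.4% of all genes. Of 20 genes of the tricarboxylic acid cycle 17 were within 1.5-fold with Cart-miR-23clus KO, 15 with miR-26a KO and 19 with the mimic. Of all 9540 genes, 7126, 7492 and 8204 were within it in the same order. With miR-26a KO 4 of the 20 were lower and 1 higher, beside 9.94% and 11.5% of all genes. Of 17 other isozymes of glycolysis, 8 had no reads in any library, among them Pklr, the liver form of pyruvate kinase. Only Eno3 and Bpgm had enough reads to compare. Both were past 1.5-fold lower in Cart-miR-23clus KO relative to wild type, Bpgm with 29, 17, 33 and 31 reads, beside 12.9% of all genes.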

How the data were processed

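The RNA of 1 culture for each of 4 conditions was sequenced. The authors prepared 3′ mRNA libraries (QuantSeq, FWD), read them as single ends of 75 bases, did not filter for quality and mapped them to mm10, with GRCm38.p6 named in the submitters' processing notes. The aligner, counter and annotation are not given in the sources used here. The authors deposited TPM for all 4 libraries, which are reads divided by gene length and scaled to a fixed sum, and an estimated count of whole reads per gene, not normalized, for 3 of them. The mimic library's reads were recovered from its TPM steps. All 14429 values tested were whole within 0.01 of a read, 588 genes were left without a value, and the others made 1449246 reads together. The sequencing gave from 2201616 to 2527005 reads in the libraries with counts, of which 76.5% to 83.2% aligned.

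The genes and lists were chosen with earlier results of these data known. Ratios are between TPM values with no pseudocount, and libraries with under 3 reads were set to 3 reads in counts and medians. Genes with at least 40 reads summed over the libraries were compared, at 1.5-fold and 2-fold. Intervals are Clopper-Pearson intervals at 95% on the reads. With 1 library for each condition no test was made. Of the 37 genes, those past 1.5-fold and the isozymes are described in full, and of each other list at most 2 genes in each direction in the report. Further genes in the closing section and single marker genes were chosen after their values were seen. Copies are genes with at least 95% identity over 300 bases of the transcript (BLAST 2.17.0, GENCODE). The alternatives were CPM, the TMM factors of edgeR 4.0.16 and the size factors of DESeq2 1.42.0, filters of 200 reads or none, and 0.5 or 1 TPM added. Leaving out Gapdh, Pgk1, Pgam1 and Eno1, which share over 40% of the 75-base windows of their transcript with other genes, and using other comparison libraries were alternatives chosen after seeing the data. Isozyme proteins were not analysed here. The steps were tested on simulated data. Scripts ran in R 4.3.3 and in Python 3.11.15 with scipy 1.17.1, pandas 2.3.3, numpy 2.4.6 and matplotlib 3.10.9.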

Additional observations from a re-analysis of the deposited data

How the results depend on the processing

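CPM, TMM or DESeq2 size factors shifted the log2 ratios by at most 0.04. This is less than the distance from each ratio to the ends of its counting interval, so all 279 single ratios had to stay within their intervals. How many intervals lay apart from no difference on these scales is not given. Of 81 alternatives for the counts and medians, 71 stayed within 1.5 times the count or within the counting error. With at least 200 reads, 23 genes were left. Those past 1.5-fold fell from 10 to 3 in Cart-miR-23clus KO against wild type, from 6 to 2 in miR-26a KO and from 1 to 0 with the mimic. Past 2-fold they fell from 3 to 1, from 3 to 0 and from 1 to 0. This filter left out Slc16a3, Aldoc, Pgk1, Pgam1, Eno2, Epas1 and Car9, each past 1.5-fold at least once. The counts thus rest largely on genes with few reads. With 1 TPM added, 1 gene remained past 2-fold in miR-26a KO against wild type. With miR-26a KO as the library compared with, 4 genes were past 1.5-fold in Cart-miR-23clus KO. Without Gapdh, Pgk1, Pgam1 and Eno1, none was past 1.5-fold or 2-fold with the mimic (0 of 28). No paired analysis was possible because there is 1 library for each condition, and no library could be left out in turn. The depth limits the genes with few reads: the interval of Pgk1 or Car9 spans more than 3-fold.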

Other observations

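Some genes of glycogen metabolism, picked from the list of further hypoxia-induced genes after their values were seen, differed in the Cart-miR-23clus KO library. The glycogen synthase gene Gys1 had 85 reads in wild type, 150 with Cart-miR-23clus KO, 84 with miR-26a KO and 100 with the mimic. It was 1.94-fold higher in Cart-miR-23clus KO relative to wild type (95% counting interval 1.48 to 2.57). The phosphoglucomutase gene Pgm2 had 173, 264, 180 and 168 reads and was 1.68-fold higher (1.38 to 2.05). The scaffold gene Ppp1r3c was 1.30-fold higher (1.10 to 1.53), and for the branching enzyme Gbe1 the ratio was 1.20 (0.788 to 1.82). Pgm1 had 10, 8, 6 and 10 reads, too few to compare.

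Of the collagen-modifying hypoxia genes, also picked after their values were seen, P4ha1 and Plod1 were lower in Cart-miR-23clus KO, while their relatives P4ha2, 1.06-fold below wild type (0.909 to 1.25), and Plod2, 1.29-fold above it (1.16 to 1.42), stayed within 1.5-fold and Lox was higher, as given above. P4ha1 had 538 reads in wild type, 294 with Cart-miR-23clus KO, 398 with miR-26a KO and 348 with the mimic, 1.66-fold lower in Cart-miR-23clus KO (1.44 to 1.92). Plod1 had 449, 235, 381 and 378 reads, 1.74-fold lower (1.48 to 2.04).

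Zfp395 was lowest in miR-26a KO, with 79 reads in wild type, 67 with Cart-miR-23clus KO, 22 with miR-26a KO and 48 with the mimic. It was 3.27-fold lower in miR-26a KO relative to wild type (2.02 to 5.51) and 2.04-fold higher in the mimic library than in miR-26a KO (1.21 to 3.55), and the mimic library was 1.60-fold below wild type (1.11 to 2.35).

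In the tricarboxylic acid cycle, Suclg2 was also lowest in miR-26a KO, with 57 reads in wild type, 55 with Cart-miR-23clus KO, 27 with miR-26a KO and 57 with the mimic. It was 1.92-fold lower in miR-26a KO relative to wild type (1.20 to 3.16) and 1.97-fold higher with the mimic (1.23 to 3.24). These are values of single libraries and were not tested.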
